A study of Mus musculus with 2 samples.

Results

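The genes described here are 32 immediate early and heat shock genes of the mouse, taken by symbol from the 32285 genes counted in each library. Of these, 23 are immediate early genes and 9 are heat shock genes. Their RNA was counted in single nuclei of the periosteum, the tissue that covers bone, together with the hematoma or callus of an injured tibia of C57BL6 mice. The first library was made at day 1 after a tibial fracture, and the second at day 5 after musculoskeletal traumatic injury (MTI), which joins the fracture to mechanical injury of the muscles around it. In each library the tissue of 3 or 4 mice was pooled, minced and dounced, and nuclei stained with Sytox-AAD were sorted before droplet capture. There is 1 library per condition, so no p-value is given, and the day and the type of injury cannot be told apart from the library.

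Immediate early genes are transcribed within minutes of a stimulus by transcription factors that the cell already holds, such as SRF and CREB, and many encode transcription factors that act on later genes. Their transcripts are short-lived, and members such as Zfp36 and Dusp1 help to shut the response down. Heat shock genes encode chaperones that keep proteins folded, and HSF1 raises the inducible ones when unfolded protein accumulates. After injury both groups are known to respond in immune cells, muscle and cells of the skeletal lineage, and both are also known to respond to the dissociation of tissue.

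The day 1 library held 48987 barcodes, of which 43464 had under 200 genes, and 2405 passed the limits on genes, mitochondrial and ribosomal RNA. The MTI library held 1446 barcodes, of which 1127 passed. The nuclei kept had a median of 409 unique molecular identifiers (UMIs, each marking 1 captured RNA molecule) at day 1 and 2364 after MTI, with totals of 1202240 and 4337337 UMIs. Levels are given as UMIs summed over a population per 1000000 UMIs of that population (CPM), with 95% Poisson intervals in brackets. Those intervals cover counting error only, not the spread between animals or between nuclei. Of all barcodes, 33 occurred in both libraries, 15 of them among the nuclei kept.

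Populations were named from marker genes, with both gene groups left out of the clustering. These marker lists also served for the naming, so their sums describe the separation and do not test it. After MTI, genes of the skeletal lineage list summed to 18858 CPM in skeletal lineage-like nuclei (178 nuclei) and 427 CPM in immune-like nuclei (550 nuclei). Immune genes summed to 268 and 7109 CPM. The macrophage and neutrophil lists were also higher in immune-like nuclei, but the monocyte list was lower there, with 1651 CPM beside 2685 CPM in skeletal lineage-like nuclei. The erythroid-like nuclei after MTI had 767 CPM of the erythroid list, beside 11.2 CPM in immune-like nuclei. They also had 6511 CPM of the immune list and 4327 CPM of the macrophage list, so their levels may not be those of erythroid cells alone. At day 1 the separation was weak. The immune list summed to 1488 CPM in the 257 immune-like nuclei against 1067 CPM in barcodes with under 200 genes, and muscle fibre genes reached 25001 CPM in the same immune-like nuclei. Skeletal lineage genes at day 1 summed to 4818 CPM in 84 skeletal lineage-like nuclei against 1008 CPM in barcodes with under 200 genes. How much of the RNA in a day 1 population came from free RNA was not tested. In all, 682 day 1 nuclei and 173 MTI nuclei were given no name.

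All 32 genes had at least 1 UMI in the nuclei kept of each library. Together they took 0.117% of the UMIs at day 1 and 0.106% after MTI. At day 1, 13 genes had 50 or more UMIs (50 to 149) and 19 had fewer (1 to 48). After MTI, 22 genes had 50 or more (50 to 489) and 10 had fewer (2 to 46). Genes with 50 or more UMIs in a library are described singly. Annotated spans ran from 1.24 to 56.5 kb with a median of 5.24 kb, and 7 of the genes have a single exon. Per kilobase of span, the levels over all MTI nuclei were led by Fos with 29.4 CPM per kb, Ier3 with 28.1 and Jun with 27.9. At day 1, Ier3 led with 33.5 CPM per kb, followed by Junb with 22.8, Jun with 22.4 and Hspa5 with 22.2.

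Promoter sequence was found in RefSeq (GRCm38.p6) for 25 of the 32 genes. Of these, 6 were picked by hand as examples that carry elements of known regulators. Each run gives the 250 bases before the gene's start in RefSeq, 5′ to 3′ on the gene's strand, with the matched element in capitals. The spans given above come from another annotation, by which the windows of Hspa5, Zfp36 and Dusp1 lie partly or wholly inside the gene. Hspa1a (chr17:34972157-34972406, minus strand) and Hspa1b (chr17:34959239-34959488, minus strand) encode the inducible HSP70. Both hold GAANNTTC, a core of paired heat shock units, starting 104 bases before the start. Hspa5 (chr2:34771840-34772089, plus strand) encodes the chaperone BiP of the endoplasmic reticulum (ER) and holds the ER stress element, starting 65 bases before its start. Zfp36 (chr7:28379229-28379478, minus strand), which encodes an mRNA decay factor, holds a CArG box, the element bound by SRF, 58 bases before its start. Dusp1 (chr17:26508473-26508722, minus strand), a phosphatase of MAP kinases, and Btg2 (chr1:134079156-134079405, minus strand), an antiproliferative factor, hold the cAMP response element TGACGTCA at 143 and 166 bases before their starts.
Hspa1a promoter: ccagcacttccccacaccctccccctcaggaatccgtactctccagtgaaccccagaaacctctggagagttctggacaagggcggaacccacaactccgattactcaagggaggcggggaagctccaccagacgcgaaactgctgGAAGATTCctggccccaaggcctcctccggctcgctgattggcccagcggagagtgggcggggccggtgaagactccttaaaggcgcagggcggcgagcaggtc
Hspa1b promoter: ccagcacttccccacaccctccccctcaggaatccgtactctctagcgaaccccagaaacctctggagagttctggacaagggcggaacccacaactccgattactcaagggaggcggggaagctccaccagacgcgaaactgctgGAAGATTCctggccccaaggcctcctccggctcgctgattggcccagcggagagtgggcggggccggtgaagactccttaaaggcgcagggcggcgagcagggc
Hspa5 promoter: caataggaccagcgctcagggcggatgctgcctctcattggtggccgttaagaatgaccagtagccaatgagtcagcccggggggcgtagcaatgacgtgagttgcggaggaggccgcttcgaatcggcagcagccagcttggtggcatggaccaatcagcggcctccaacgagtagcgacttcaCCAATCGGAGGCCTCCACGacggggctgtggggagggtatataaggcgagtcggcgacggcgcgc
Zfp36 promoter: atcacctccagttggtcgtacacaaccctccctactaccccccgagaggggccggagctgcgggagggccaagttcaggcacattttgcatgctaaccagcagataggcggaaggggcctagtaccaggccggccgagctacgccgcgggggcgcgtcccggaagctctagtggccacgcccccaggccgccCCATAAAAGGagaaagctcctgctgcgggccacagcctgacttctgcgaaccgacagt
Dusp1 promoter: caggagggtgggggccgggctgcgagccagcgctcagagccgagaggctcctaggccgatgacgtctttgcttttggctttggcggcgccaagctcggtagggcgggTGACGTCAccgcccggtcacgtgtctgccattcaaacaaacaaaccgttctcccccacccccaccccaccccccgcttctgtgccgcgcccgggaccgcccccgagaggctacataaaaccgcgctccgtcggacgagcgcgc
Btg2 promoter: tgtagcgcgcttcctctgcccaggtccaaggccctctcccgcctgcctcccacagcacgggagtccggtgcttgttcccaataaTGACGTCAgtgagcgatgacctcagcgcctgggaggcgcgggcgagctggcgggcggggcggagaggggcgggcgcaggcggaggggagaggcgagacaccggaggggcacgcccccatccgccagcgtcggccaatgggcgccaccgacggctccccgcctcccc

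The promoters of Hspa1a and Hspa1b were the same at 247 of 250 bases (98.8%). Because the copies are nearly identical, how reads were split between these genes is uncertain. Over 32851 RefSeq promoters of this length, searched on both strands, GAANNTTC occurred in 6.69%, and among the 25 promoters it occurred in 5, those of Fosl2, Jun, Hspa1a, Hspa1b and Hspb1. The longer form NGAANNTTCNNGAAN, which contains it, occurred in 0.460% of all promoters and in 0 of the 25. TGACGTCA occurred in 1.55% of all promoters, the CArG box in 1.47% and the ER stress element in 0.113%. The AP-1 site TGANTCA occurred in 6.75% of all promoters and in those of Bag3 and Hspa5, where it overlapped none of the other elements. These matches describe letters in a window only.

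In the day 1 library most of the RNA of all genes, and of both groups with them, lay outside the nuclei kept. Barcodes with under 200 genes, taken as the level of free RNA although they may also hold shallow nuclei, held 77.7% of the 9712 UMIs of immediate early genes and 70.4% of the 4365 UMIs of heat shock genes. The nuclei kept held 9.05% and 12.0%. Of the 9389014 UMIs of all genes, 6848386 lay in barcodes with under 200 genes and 1202240 in the nuclei kept. The summed level of immediate early genes was 731 CPM (684 to 781) in the nuclei and 1102 CPM (1077 to 1127) in free RNA, a ratio of 0.664 (0.618 to 0.712). The summed level of heat shock genes was 437 CPM (400 to 476) in the nuclei and 449 CPM (433 to 465) in free RNA, a ratio of 0.973 (0.886 to 1.07). Immediate early RNA was thus lower in nuclei than in free RNA, and heat shock RNA was not separable from it.

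Gene by gene, a level was called different where its ratio was at least 1.5-fold in either direction, among genes with at least 5 UMIs expected on each side. By that rule, 0 of the 23 immediate early genes were higher in day 1 nuclei than in free RNA, beside 13.1% of the 15967 genes compared. In the other direction 9 of the 23 were lower, beside 13.6% of all genes compared. Their median ratio was 0.714, beside 1.05 over all genes compared. The AP-1 subunits Fos (0.47, 0.33 to 0.65) and Jun (0.65, 0.51 to 0.81) were lower, and Fosl1 (0.65, 0.29 to 1.3) passed the ratio with an interval that holds 1. Junb, an AP-1 subunit, had 96.5 CPM in nuclei and 143 CPM in free RNA, a ratio of 0.67 (0.55 to 0.82) just short of the call. The decay factor Zfp36 (0.45, 0.33 to 0.60), Btg2 (0.41, 0.23 to 0.69) and the zinc-finger factors Klf2 (0.52, 0.37 to 0.73) and Klf6 (0.50, 0.37 to 0.67) were lower. Ier5, an immediate early response gene, was also lower (0.51, 0.33 to 0.75), and Egr2 passed the ratio on 3 UMIs in the nuclei. The other 14 were not called, with ratios from Ier3 at 0.67 to Egr3 at 1.42.

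Egr1, a zinc-finger transcription factor that responds to acute signalling, lay at the free RNA level. It had 59.9 CPM in nuclei and 52.0 CPM in free RNA, a ratio of 1.15 (0.882 to 1.49). Of its 72 UMIs in the nuclei, 20 lay in 1 nucleus and all 72 in 41 nuclei. The NR4A nuclear receptors also stayed near free RNA, with a ratio of 0.834 (0.652 to 1.05) for the 3 genes summed. Among the heat shock genes, 7 had enough UMIs, with 1 higher and 1 lower, beside 13.1% and 13.6% of all genes compared. Hsph1, an HSP110 that frees nucleotides from HSP70, was higher (1.65, 1.17 to 2.28), and Dnajb1, the HSP40 partner of HSP70, was lower (0.29, 0.059 to 0.90) on 3 UMIs in the nuclei. Hsp90aa1, the inducible HSP90, had a ratio of 1.21 (1.002 to 1.46), Bag3, a co-chaperone of stressed muscle, 1.29 (0.981 to 1.68), and Hspa5 0.73 (0.61 to 0.87). Hspa1a and Hspa1b had 1 UMI each in the nuclei.

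**Figure D1:**
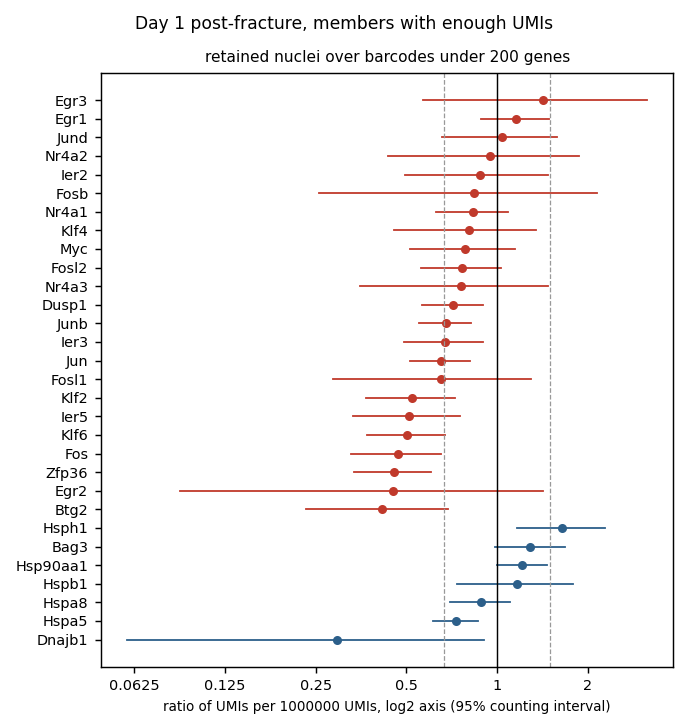
Ratio of CPM in day 1 nuclei to CPM in barcodes with under 200 genes for the 30 members with enough UMIs, on a log2 axis, with 95% counting intervals and dashed lines at 1.5-fold. Immediate early genes sit mostly to the left of 1, down to Btg2 at 0.41, and Hsph1 at 1.65 is the member past the right line.

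Other genes of the pathways were compared with free RNA in the same way, beside 13.1% higher and 13.6% lower over all genes compared. Of 35 other immediate early genes, 13 were lower, with the smallest ratios in Phlda1 (0.42) and Zfp36l2 (0.44), and 1 was higher, Atf3 (1.77, 91 UMIs in nuclei), a stress-induced factor that pairs with AP-1. Of 16 regulators upstream of immediate early genes, 0 were higher and 3 lower, among them the MAP kinases Mapk3 (0.44) and Mapk14 (0.52). Of 24 other heat shock genes, 1 was higher, the HSP90 activator Ahsa1 (1.63), and 2 were lower, Hspe1 (0.32) and Dnajb5 (0.44). Of 17 genes of the unfolded protein response of the ER, 0 were higher and 4 were lower, among them Xbp1 (0.44), its spliced transcription factor, and Herpud1 (0.55). The mitochondrial share of RNA was 0.198% in the nuclei kept, where the limit of 0.5% fixed a low value, and 0.902% in free RNA. Over all day 1 barcodes with 200 to 5000 genes it was 0.932%. Barcodes with 200 to 5000 genes whose mitochondrial share was 0.5% to 5% had 948 CPM of immediate early genes, and those at 5% or more had 1352 CPM. The part of mitochondrial or cytoplasmic RNA in the ratios was not tested.

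The level of immediate early genes fell with the depth of a day 1 nucleus. It was 1120 CPM (895 to 1385) at 200 to under 300 UMIs, 856 CPM (780 to 939) at 300 to under 500, 633 CPM (560 to 713) at 500 to under 1000, and 402 CPM (311 to 511) at 1000 UMIs and over. The shallowest nuclei were thus level with free RNA and the deepest were the farthest from it. The makeup of the steps also differed. In the shallowest, 29.0% of nuclei were immune-like and 36.4% unnamed, and in the deepest 0% and 45.2%. The part of this makeup in the fall was not tested. Heat shock genes gave 435 CPM (299 to 611), 488 CPM (431 to 551), 421 CPM (362 to 487) and 311 CPM (231 to 408) over the same steps, with intervals that overlap between neighbours. Within myogenic-like nuclei alone, immediate early genes went from 1003 CPM (643 to 1493) to 539 CPM (44 UMIs) between the shallowest and the deepest step, with intervals that overlap. The 970 CPM (866 to 1083) of myogenic-like nuclei at 300 to under 500 UMIs lay apart above the deepest step. Thinned to 200 UMIs each, 19.0% of nuclei at 200 to under 300 UMIs and 9.68% of those at 1000 and over had a UMI of an immediate early gene, where without thinning the shares were 24.2% and 40.9%.

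**Figure D2:**
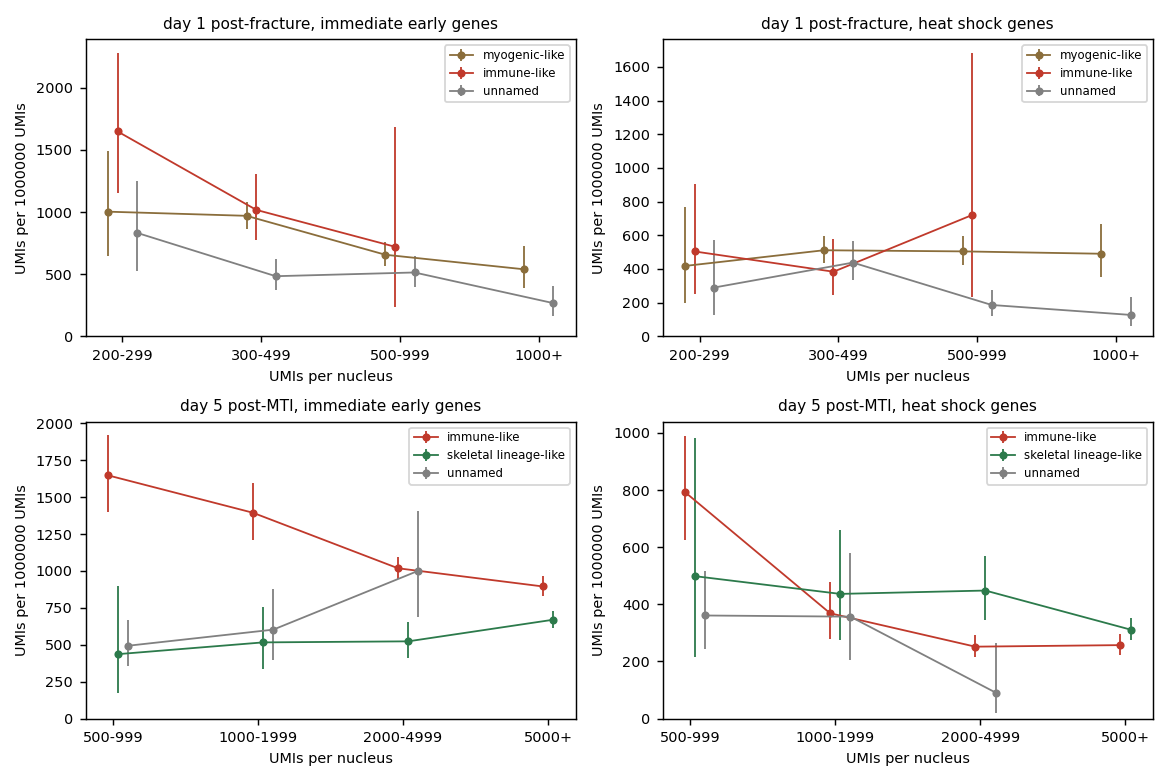
Summed CPM of immediate early genes and of heat shock genes against the UMIs of a nucleus, within named populations of each library, with 95% counting intervals. At day 1 the myogenic-like nuclei go from 1003 CPM of immediate early genes in the shallowest step to 539 CPM in the deepest, and after MTI the immune-like nuclei go from 1648 to 894 CPM, while the skeletal lineage-like nuclei go from 436 to 669 CPM.

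Across the day 1 populations, immune-like nuclei had 1150 CPM of immediate early genes (938 to 1396), which is 1.04 times free RNA (0.850 to 1.27). Myogenic-like nuclei (1382) had 800 CPM (735 to 869), skeletal lineage-like nuclei 954 CPM (685 to 1295), and unnamed nuclei 475 CPM (407 to 550). Myogenic-like and unnamed nuclei therefore lay below the free level, and the other populations could not be told from it. Of the day 1 clusters counted as myogenic-like, those of 281, 271 and 32 nuclei had at least 3 muscle markers raised 1.5-fold. Those of 298, 294 and 206 nuclei were placed there by muscle marker share alone. Their shares were 5.12%, 6.97% and 8.52% of UMIs, beside 4.57% over all barcodes. Free RNA itself held 46009 CPM of muscle fibre genes. The heat shock sum was 440 CPM (313 to 601) for immune-like nuclei, 503 CPM (452 to 558) for myogenic-like ones and 270 CPM (219 to 328) for unnamed ones. In skeletal lineage-like nuclei they summed to 791 CPM (548 to 1106), 1.76 times free RNA (1.22 to 2.47), on 34 UMIs. Thinned to 200 UMIs, nuclei with an immediate early UMI made up 19.8% (15.1 to 25.3) of immune-like, 14.4% (12.6 to 16.4) of myogenic-like and 10.7% (8.48 to 13.3) of unnamed nuclei. Without thinning these shares were 28.8%, 28.9% and 22.7%.

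**Figure D3:**
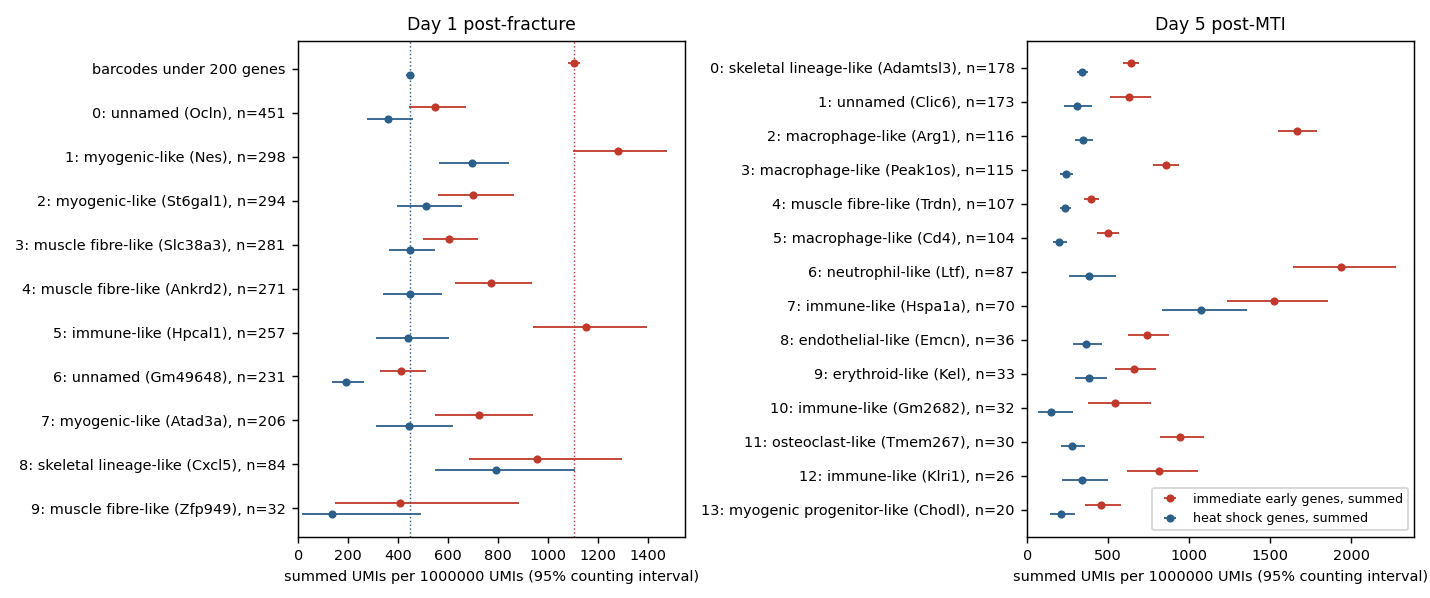
Summed CPM of immediate early genes (red) and heat shock genes (blue) in each cluster of both libraries, with 95% counting intervals and dotted lines at the free RNA level of day 1. After MTI the neutrophil-like cluster (1939 CPM), the Arg1-led macrophage-like cluster (1662 CPM) and an immune-like cluster with no subtype (1521 CPM) stand above the other clusters for immediate early genes. The last is shallow (median 802 UMIs). Without 1 nucleus it has 1313 CPM (1046 to 1628), which overlaps the osteoclast-like cluster.

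Of the 13 genes with 50 or more UMIs at day 1, all had a highest cluster whose interval overlapped the next. The share of all genes for which this holds was not computed. In skeletal lineage-like nuclei Junb had 256 CPM (128 to 458, on 11 UMIs), beside 143 CPM in free RNA, and Hspa5 had 303 CPM (161 to 517, on 13 UMIs), beside 170 CPM. Klf6 had 0 UMIs there, where 3 UMIs would be 69.8 CPM and the 95% Poisson interval runs to 85.9 CPM, which holds the 84.4 CPM of free RNA. In immune-like nuclei Egr1 had 158 CPM (86.3 to 265), on 14 UMIs of which 6 lay in 1 nucleus, beside 52.0 CPM in free RNA. Hsp90aa1 had 169 CPM there, beside 94.6 CPM in free RNA. Jun had 94.3 CPM in myogenic-like nuclei, Dusp1 85.7, Hspa8 74.3 and Fosl2 48.6 CPM, each within 1.5-fold of its free RNA level. The nuclear receptor Nr4a1 had 50.7 CPM over all nuclei, beside 61.04 CPM in free RNA. In myogenic-like nuclei Zfp36 had 38.6 CPM and Ier3 48.6 CPM, beside 93.6 and 62.1 CPM in free RNA.

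Between day 1 myogenic-like and immune-like nuclei, immediate early genes summed to a ratio of 0.696 (0.563 to 0.868) and heat shock genes to 1.14 (0.820 to 1.64). With enough UMIs for 5 immediate early genes, 0 were higher in myogenic-like nuclei, beside 25.8% of the 2799 genes compared, and 2 were lower, beside 22.1%. The lower ones were Egr1 (0.47, 0.257 to 0.920) and Junb (0.57, 0.31 to 1.13). Of the 14 Egr1 UMIs of immune-like nuclei, 6 lay in 1 nucleus, and of the 52 of myogenic-like nuclei, 20 lay in 1. Immune-like nuclei were shallower, with a median of 322 UMIs against 426. Among nuclei of 300 to under 500 UMIs, a range chosen after seeing the data, the summed ratio was 0.953 (0.723 to 1.28). At 200 to under 300 UMIs, myogenic-like nuclei had 1003 CPM (24 UMIs) and immune-like nuclei 1649 CPM (1155 to 2283, 36 UMIs), so the steps of depth differed and the low counts do not settle the difference at matched depth. Of 4 heat shock genes with enough UMIs, Bag3 passed the ratio (2.28, 0.740 to 11.4), with 77.2 CPM in myogenic-like nuclei and 45.1 CPM in free RNA. Hspb1, the small heat shock protein HSP27 of muscle, had 22 of its 26 day 1 UMIs in myogenic-like nuclei, which held 1382 of the 2405 nuclei. In the wider lists 5 of 9 other immediate early genes were higher in myogenic-like nuclei, led by Bhlhe40 (4.12) and Tob1 (3.04), and 3 were lower, among them Nfkbia (0.47) and Cebpb (0.59). Of 9 other heat shock genes, 5 were higher, led by the heat shock factor Hsf2 (6.08) and the mitochondrial chaperone Hspa9 (3.13), and 0 were lower. Of 10 upstream regulators, 3 were higher, among them the muscle factor Mef2c (2.96) and Atf2 (1.87), and 1 was lower, Elk3 (0.45). Of 5 ER stress genes, 1 was lower, Hsp90b1 (0.65).

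A day 1 cluster of 298 nuclei stood out among those counted as myogenic-like, where it was placed because muscle markers took 5.12% of its UMIs, beside 4.57% over all barcodes. Muscle fibre genes summed to 51077 CPM in it, beside 87251 CPM in all myogenic-like nuclei and 46009 CPM in free RNA. Its leading genes included Nes, Atf3 and Egr1. All listed genes, Egr1 and Atf3 included, had been left out of the clustering. Its immediate early genes summed to 1277 CPM (1100 to 1474) and its heat shock genes to 693 CPM (565 to 843), which is 1.16 (0.997 to 1.34) and 1.55 (1.26 to 1.89) times free RNA. The comparison of this cluster with the other myogenic-like nuclei was chosen after its values were seen and is a description. Immediate early genes had a ratio of 1.89 (1.58 to 2.26), or 1.57 (1.29 to 1.90) without the 1 nucleus that held the most. That nucleus had 32 immediate early UMIs, 20 of them Egr1, among 474 UMIs in all. Heat shock genes had a ratio of 1.53 (1.20 to 1.94), or 1.45 (1.13 to 1.84) without the same nucleus.

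In this Atf3-led cluster 5 of 9 immediate early genes were higher than in other myogenic-like nuclei, beside 19.0% of the 4266 genes compared, and 0 were lower, beside 17.2%. They were Egr1 (6.61, and 2.61 without the 1 nucleus), Ier3, an inhibitor of cell death (3.00, 1.42 to 6.24), Klf6 (2.85, 1.36 to 5.87), Junb (1.85, 1.01 to 3.29) and Zfp36 (1.90, 0.753 to 4.46). Jun (1.12), Dusp1 (1.16) and Nr4a1 (1.19) were not called. Among 5 heat shock genes, Hspa5 (2.11, 1.36 to 3.25) and Hsp90aa1 (1.56, 0.956 to 2.47) were higher, and Hsph1, Bag3 and Hspa8 had ratios of 1.16, 1.09 and 1.14. Of 14 other immediate early genes, 6 were higher, led by Atf3 (13.6) and the zinc-finger factor Klf10 (2.89), and 0 were lower. Atf3 served to pick this cluster and Egr1 was among its leading genes. Their high ratios follow from that choice, and each of the counts of higher immediate early genes includes 1 of them. Of 13 other heat shock genes, 8 were higher, among them Hspa4l (3.81) and the muscle small heat shock gene Cryab (3.30). Of 10 ER stress genes, 8 were higher, among them the ER chaperones Hsp90b1 (2.49) and Calr (2.34). Of 12 upstream regulators, 1 was higher, Atf2 (1.54), and 3 were lower, among them the SRF cofactors Mrtfb (0.42) and Elk3 (0.57).

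After MTI the immediate early genes summed to 764 CPM (738 to 790) and the heat shock genes to 298 CPM (282 to 315) over all nuclei. The 27 MTI barcodes with under 200 genes had a mitochondrial share of 50.7%, so no free RNA level is given for this library. Immune-like nuclei had 1034 CPM of immediate early genes (986 to 1083), osteoclast-like nuclei (30) 946 CPM (817 to 1089), endothelial-like nuclei (36) 740 CPM (620 to 877) and erythroid-like nuclei (33) 661 CPM (544 to 796). The level was 637 CPM (590 to 688) for skeletal lineage-like nuclei, and myogenic-like nuclei (127) had 403 CPM (363 to 447). Each population overlapped its neighbour in this order down to skeletal lineage-like nuclei, and the interval of myogenic-like nuclei lay apart below all of these. Over these populations heat shock genes spanned less, from 230 CPM (200 to 264) in myogenic-like to 384 CPM (296 to 489) in erythroid-like nuclei. The erythroid-like nuclei also held immune and macrophage genes, as given above. Heat shock genes had 295 CPM (270 to 322) in immune-like nuclei. In the skeletal lineage-like nuclei they reached 340 CPM (305 to 378). Single clusters spanned more, from 148 CPM in an immune-like cluster with lymphoid markers to 1071 CPM in one with no subtype. The latter (70 nuclei) was also the highest cluster without its fullest nucleus, at 692 CPM (503 to 929).

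**Figure D4:**
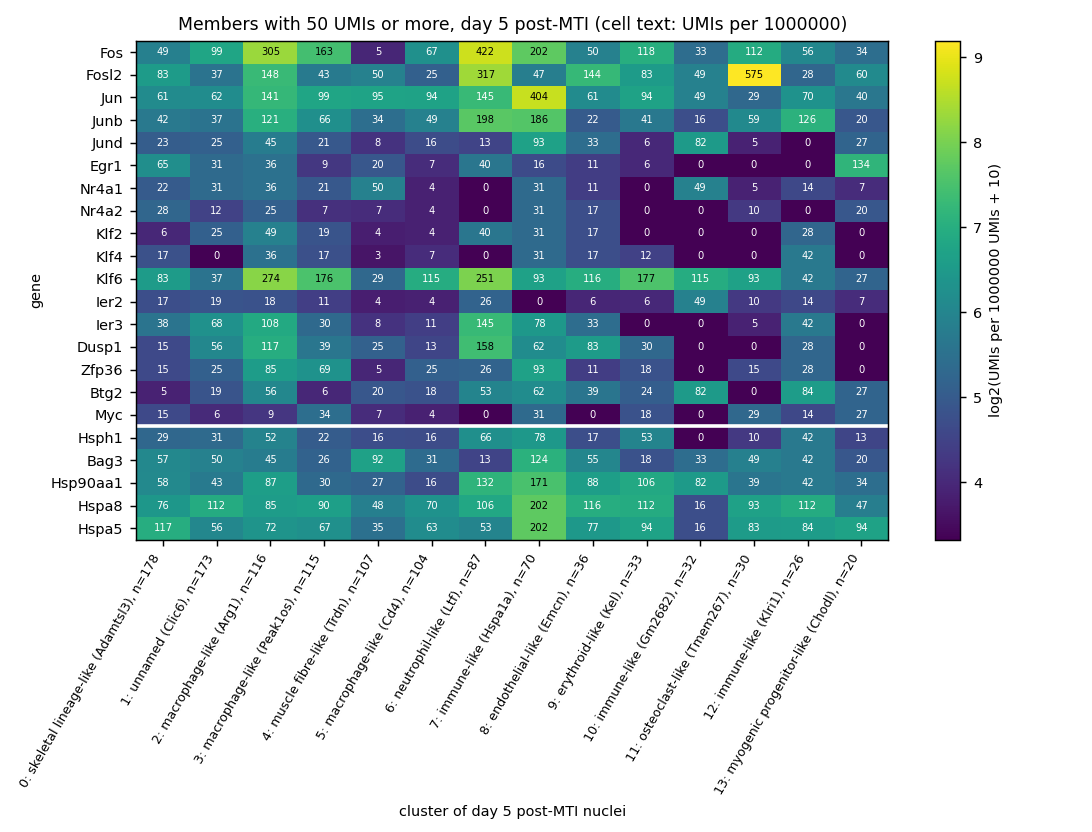
Levels of the 22 members with 50 or more UMIs in the 14 clusters of the MTI library, with colour for log2(CPM + 10) and the CPM printed in each cell. Fosl2 peaks in osteoclast-like nuclei at 575 CPM, Egr1 in myogenic progenitor-like nuclei at 134 CPM, and Fos is lowest in muscle fibre-like nuclei at 5.36 CPM.

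Among the 22 members with 50 or more UMIs after MTI, Fosl2 and Jun were the ones whose highest cluster had an interval apart from the next. The share of all genes with such an interval was not computed, so this describes the members only. Fosl2, an AP-1 subunit known to act in osteoclasts, had 575 CPM (476 to 689) in osteoclast-like nuclei, where 118 of its 427 UMIs lay in 25 of 30 nuclei. The next cluster, neutrophil-like, had 317 CPM (203 to 471), and immune-like and skeletal lineage-like nuclei had 77.8 and 82.6 CPM. Fos, in contrast, was highest in neutrophil-like nuclei, with 422 CPM (289 to 596), and in Arg1-led macrophage-like nuclei, with 305 CPM (256 to 361). Fos had 48.6 CPM in skeletal lineage-like and 5.36 CPM in muscle fibre-like nuclei. These AP-1 subunits thus had different orders over the populations.

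Jun had 404 CPM (264 to 591) in an immune-like cluster of 70 nuclei with no subtype, on 26 UMIs in 13 nuclei, and 145 CPM (72.4 to 260) in the next cluster. That immune-like cluster had a median of 802 UMIs and was the highest cluster for 9 of the 22 members with 50 or more UMIs, with intervals that overlap the next cluster for all of these but Jun. The share of all genes that were highest in this shallow cluster was not computed, so the count sets the members apart from no other genes. Nr4a2 is among the 9 on 2 UMIs, and Hsp90aa1 on 11 UMIs of which 6 lay in 1 nucleus. Junb was highest in neutrophil-like nuclei (198 CPM, 111 to 326) and had 31.3 CPM in myogenic-like nuclei. Jund, the AP-1 subunit that is expressed without stimulus, had 29.5 CPM in immune-like, 23.3 CPM in skeletal lineage-like and 11.2 CPM in myogenic-like nuclei.

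Egr1 had 134 CPM (82.0 to 207) in myogenic progenitor-like nuclei, on 20 UMIs in 6 of 20 nuclei. In immune-like nuclei its level was 16.5 CPM, and in skeletal lineage-like ones it was 65.1 CPM (50.5 to 82.7). Egr3 had 15 of its 19 UMIs in skeletal lineage-like nuclei, 8 of them in 1 nucleus, and 0 in immune-like nuclei, which allows up to 1.77 CPM there. The nuclear receptor Nr4a1 had 49.6 CPM (34.9 to 68.4) in muscle fibre-like nuclei and 20.6 CPM in immune-like nuclei. Nr4a2 had 11.2 CPM in immune-like and 28.2 CPM in skeletal lineage-like nuclei. Nr4a3 had 10 of its 26 UMIs in the dendritic-like cluster, 7 of them in 1 nucleus.

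The Krüppel-like factor Klf6 had 489 UMIs in 268 MTI nuclei. It had 178 CPM in immune-like, 177 CPM in erythroid-like (which also held immune genes), 82.6 CPM in skeletal lineage-like and 29.0 CPM in myogenic-like nuclei. Klf2, known for quiescence in leukocytes and endothelium, was led by Arg1-led macrophage-like nuclei (49.4 CPM, 30.9 to 74.7), and Klf4 had 19.5 CPM in immune-like and 17.5 CPM in skeletal lineage-like nuclei. Ier2 had 12.97 and 16.5 CPM, and Ier3 51.9 and 37.9 CPM, in the same pair of populations. Among the genes of feedback, Dusp1 had 82.9 CPM in endothelial-like, 57.2 CPM in immune-like and 14.6 CPM in skeletal lineage-like nuclei. Zfp36 had 56.6 CPM in immune-like and 4.47 CPM in myogenic-like nuclei. Btg2 had 32.4 CPM in immune-like and 4.86 CPM in skeletal lineage-like nuclei. The growth regulator Myc ranged less, with 15.9, 14.6 and 10.1 CPM in immune-like, skeletal lineage-like and myogenic-like nuclei.

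Among the heat shock genes, Bag3, which clears damaged proteins of the muscle sarcomere, had 92.5 CPM (72.0 to 117) in muscle fibre-like nuclei. Those were 69 UMIs in 39 nuclei, and immune-like nuclei had 36.5 CPM. The highest cluster for Bag3 was the immune-like one with no subtype (124 CPM, 53.6 to 245, on 8 UMIs). Its ratio of myogenic-like to skeletal lineage-like nuclei was 1.40 (0.981 to 2.01), an interval that holds 1. Hspb1 had 7 of its 9 UMIs in muscle fibre-like nuclei and 0 in immune-like and skeletal lineage-like nuclei, which allows up to 1.77 and 2.91 CPM. Hspa5 had 117 CPM (96.7 to 139) in skeletal lineage-like nuclei, which secrete matrix, against 70.7 CPM in immune-like and 44.7 CPM in myogenic-like nuclei. By cluster, Hspa5 too was highest in the immune-like one with no subtype (202 CPM, 107 to 345, on 13 UMIs). The constitutive chaperone Hspa8 had 86.6 CPM in immune-like and 75.8 CPM in skeletal lineage-like nuclei. Hsp90aa1 had 53.6 and 58.3 CPM, and Hsph1 32.4 and 29.1 CPM, in these populations. Dnajb1 had 13 UMIs and Hspa1b had 2 UMIs in all MTI nuclei. Hspa1a had 21 UMIs, 19 of them in 1 immune-like nucleus of 856 UMIs that also held 6 UMIs of Hsp90aa1.

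Between immune-like and skeletal lineage-like MTI nuclei the immediate early genes summed to a ratio of 1.62 (1.48 to 1.78) and the heat shock genes to 0.868 (0.756 to 0.998), or 0.961 (0.829 to 1.12) with the cluster resolution doubled. Of 22 immediate early genes with enough UMIs, 10 were higher in immune-like nuclei, beside 30.3% of the 11657 genes compared, and 4 were lower, beside 31.1%. The median ratio of the 22 was 1.32, beside 1.01 over all genes compared. The largest ratios were those of Btg2 (6.67, 2.69 to 21.4), Klf2 (4.15, 1.75 to 11.9), Dusp1 (3.92, 2.27 to 7.28), Zfp36 (3.88, 2.24 to 7.21) and Fos (3.69, 2.73 to 5.08). Ier5 (2.93), Klf6 (2.16), Nr4a3 (2.12, 0.667 to 8.86), Junb (2.09) and Jun (1.95) were also higher. Of the 4 genes of feedback and growth control, whose summed ratio was 3.34 (2.46 to 4.61), 3 were in this group.

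The lower genes were Egr3 (0 UMIs against 15), Egr1 (0.25, 0.157 to 0.400), Nr4a2 (0.40, 0.211 to 0.733) and Fosb (0.53, 0.240 to 1.16). Of 7 AP-1 genes 3 were thus higher in immune-like nuclei and 1 was lower, and the 2 EGR genes with enough UMIs were lower, 8 of the 15 UMIs of Egr3 lying in 1 nucleus. Beside the counts that follow, 30.3% of all genes compared were higher and 31.1% were lower. Among 6 heat shock genes, Hspa1a passed on 21 UMIs against 0, 19 of them in 1 nucleus. Hspa5 (0.61, 0.47 to 0.79) and Bag3 (0.64, 0.44 to 0.93) were lower. Of 32 other immediate early genes, 16 were higher and 8 lower. Atf3 had a ratio of 11.01 and the NF-kB inhibitor Nfkbia 7.65, while Ccn1 and Ccn2, matricellular targets of YAP, had 0.0275 and 0.0227. Of 17 ER stress genes, 2 were higher, Atf6 (3.13) and Ern1 (2.07), and 8 were lower, among them Calr (0.44) and the stress sensor Eif2ak3 (0.52). Of 21 other heat shock genes, 2 were higher, among them Hspa4l (1.90), and 4 were lower, among them Fkbp4 (0.36) and Dnajb4 (0.46). Of 16 upstream regulators, 5 were higher, among them Mef2a (4.14) and Mapk3 (2.61), and 2 were lower, Crem (0.48) and Mapk8 (0.62).

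**Figure D5:**
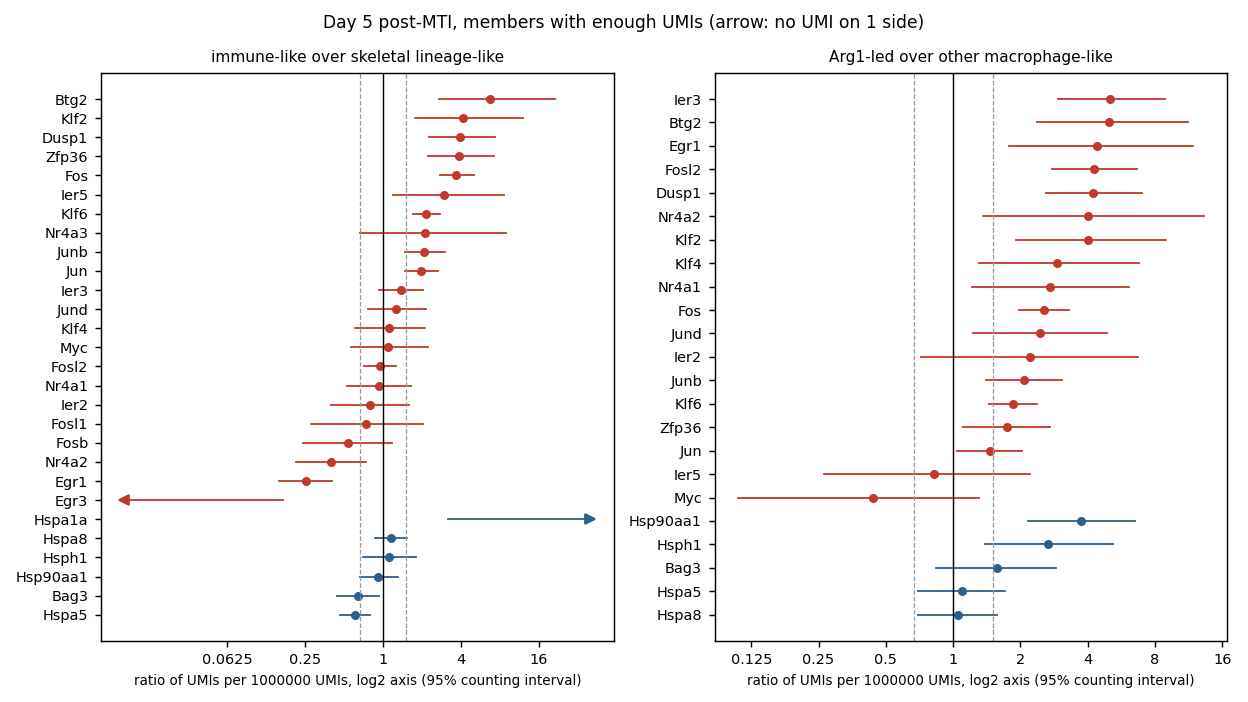
Ratio of CPM with 95% counting intervals on log2 axes for each member with enough UMIs, in immune-like over skeletal lineage-like nuclei (left) and in Arg1-led over other macrophage-like nuclei (right) of the MTI library, where an arrow marks 0 UMIs on 1 side. In the left panel Btg2 is at 6.67 and Egr1 at 0.25, and in the right panel 15 of 18 immediate early genes lie at 1.5-fold or more.

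Within macrophage-like nuclei (335) the immediate early genes were not even. The cluster led by Arg1, Mmp12 and Cxcl3 (116 nuclei) had 1662 CPM (1545 to 1786), the cluster led by Gpnmb and Fabp5 among others (115 nuclei) had 855 CPM (778 to 937), and the cluster led by Cd4, Selenop and Ccl8 among others (104 nuclei) had 497 CPM (433 to 567). The intervals of the clusters do not overlap. Thinned to 500 UMIs each, 56.0% (46.5 to 65.2) of Arg1-led nuclei had an immediate early UMI, against 25.2% (17.6 to 34.2) and 17.3% (10.6 to 26.0) in the other clusters. Without thinning the shares were 94.8%, 87.8% and 65.4%. The comparison of the Arg1-led cluster with the other macrophage-like nuclei was chosen after these values were seen and is a description.

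Its summed ratio was 2.40 (2.16 to 2.67) for immediate early genes, of which 15 of 18 were higher, beside 13.4% of the 7997 genes compared, and 1 was lower, beside 23.7%. Ier3 (5.02, 2.95 to 8.82), Btg2 (4.99, 2.37 to 11.2), Egr1 (4.39, 1.77 to 11.9), Fosl2 (4.26, 2.78 to 6.65) and Dusp1 (4.23, on 52 and 27 UMIs) had the largest ratios. Klf2, Nr4a2, Klf4, Nr4a1, Fos, Jund, Ier2, Junb, Klf6 and Zfp36 had ratios from 4.03 down to 1.74, all with intervals above 1 except Ier2 (2.20, 0.718 to 6.71). Jun (1.46, 1.04 to 2.02) and Ier5 (0.82, 0.264 to 2.22) were not called, and Myc (0.44, 0.109 to 1.31) was the lower gene, with 4 UMIs against 20. Heat shock genes had a summed ratio of 1.57 (1.26 to 1.93), with Hsp90aa1 (3.72, 2.17 to 6.53), Hsph1 (2.66, 1.38 to 5.16) and Bag3 (1.57, 0.837 to 2.89) higher and Hspa8 (1.06) and Hspa5 (1.10) not called.

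Depth moved with the size of this difference. The immediate early ratio was 3.08 (2.05 to 4.70) among nuclei of 500 to under 2000 UMIs, 2.94 (on 390 and 258 UMIs) at 2000 to under 5000 and 1.83 (1.56 to 2.14) at 5000 and over. For heat shock genes the same steps gave 2.27 (1.01 to 5.31), 1.82 (1.31 to 2.53) and 1.27 (0.923 to 1.74). The immediate early genes were therefore higher in Arg1-led nuclei at each depth. In the wider lists, again beside 13.4% higher and 23.7% lower over all genes compared, 12 of 22 other immediate early genes were higher. The lower one was Irf1 (0.61). Errfi1 (4.70), a brake on EGF receptor signalling, and Pim1 (3.41), a survival kinase, led the higher ones. Of 16 other heat shock genes 4 were higher, among them the heat shock factors Hsf1 (2.03) and Hsf2 (2.45), and 1 was lower, Dnajb6 (0.62). Of 15 ER stress genes 4 were higher, among them Hyou1 (2.68) and Ern1 (2.65), and of 14 upstream regulators 2 were higher, Crem (1.63) and Mapk3 (1.62), and 1 was lower, Mef2c (0.44).

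Neutrophil-like nuclei (87) had the highest summed level of immediate early genes of the MTI clusters, 1939 CPM (1638 to 2279), which overlaps the Arg1-led cluster. They had 383 CPM (256 to 549) of heat shock genes, at a median depth of 738 UMIs. This comparison with macrophage-like nuclei was also chosen after its values were seen. The summed ratio was 1.95 (1.63 to 2.31) for immediate early genes and 1.47 (0.973 to 2.15) for heat shock genes. Muscle fibre and skeletal lineage genes summed to 1662 and 1464 CPM in neutrophil-like nuclei, beside 165 and 279 CPM in macrophage-like nuclei. The shallow immune-like cluster with no subtype had 2298 and 1335 CPM of them. The part of RNA from other cells in these levels was not tested. Of 5 immediate early genes, 3 were higher, beside 17.3% of the 3109 genes compared, and 0 were lower, beside 47.3%. They were the AP-1 subunits Fosl2 (4.51, 2.76 to 7.10), Junb (2.54, 1.38 to 4.37) and Fos (2.38, 1.59 to 3.44), while Jun (1.31) and Klf6 (1.34) were not called. Among nuclei of 500 to under 2000 UMIs the immediate early ratio was 1.33 (1.03 to 1.72) and the heat shock ratio 0.867 (0.475 to 1.56), both smaller than without the limit on depth. In that range the Arg1-led cluster had 2355 CPM of immediate early genes (80 UMIs in 23 nuclei) and neutrophil-like nuclei 1903 CPM (135 UMIs in 86 nuclei). These values are in the reverse order of those over all depths, where the intervals overlap, and the low counts settle neither order. Of 10 other immediate early genes 4 were higher, led by Pim1 (3.88) and Mcl1 (1.78), and 3 were lower, among them Nfkbia (0.41) and Atf3, which had 0 UMIs in neutrophil-like and 119 in macrophage-like nuclei. Of 11 upstream regulators 0 were higher and 7 were lower, among them Mef2c (0.12) and Mef2a (0.26). Of 3 other heat shock genes 1 was lower, Hspa4 (0.61), and of 4 ER stress genes 3 were lower, among them Hsp90b1 (0.48) and Ern1 (0.55).

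Over all MTI nuclei the levels were higher in shallow nuclei. Immediate early genes had 1014 CPM (885 to 1157) at 500 to under 1000 UMIs, 1022 CPM (909 to 1146) at 1000 to under 2000, 881 CPM (825 to 939) at 2000 to under 5000 and 672 CPM (642 to 703) at 5000 and over. Heat shock genes had 574 CPM (478 to 684), 422 CPM (350 to 505), 291 CPM (259 to 325) and 267 CPM (248 to 286). Between nuclei under 1000 UMIs and those of 2000 or more, immediate early genes had a ratio of 1.39 (1.21 to 1.59) and heat shock genes 2.10 (1.73 to 2.53), or 1.69 for heat shock genes without 1 nucleus. Of 10 immediate early genes 5 were higher in shallow nuclei, beside 10.9% of the 6869 genes compared, and 1 was lower, beside 42.8%. Jun (2.21, 1.54 to 3.09), Junb (1.95, 1.20 to 3.04), Ier3 (1.84, 0.955 to 3.27), Fos (1.80, 1.23 to 2.55) and Dusp1 (1.79, 0.926 to 3.17) were higher, and Egr1 (0.28, 0.034 to 1.05) was lower. Of 5 heat shock genes, Hsph1 (2.41), Hsp90aa1 (2.20) and Hspa8 (1.83) were higher. Of 15 other heat shock genes 2 were higher, among them Dnaja1 (2.10), and 7 were lower, among them Hspb8 (0.18) and Hsf2 (0.20). Of 23 other immediate early genes 4 were higher, among them Gadd45a (2.59) and Ptgs2 (2.25), and 7 were lower, among them Errfi1 (0.19) and Ccn1 (0.41). Of 13 upstream regulators 0 were higher and 10 were lower, among them Mapk8 (0.22) and Mrtfb (0.37), and of 13 ER stress genes 1 was higher, Atf4 (1.52), and 4 were lower, among them Dnajb11 (0.47) and Hsp90b1 (0.58). The median ratio over all genes compared was 0.741, so the shallow nuclei held relatively less of most genes.

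The populations differed in this. Within immune-like nuclei, immediate early genes went from 1648 CPM (1402 to 1924) at 500 to under 1000 UMIs to 894 CPM (827 to 966) at 5000 and over. Within skeletal lineage-like nuclei they went from 436 CPM (175 to 899) to 669 CPM (614 to 728), with intervals that overlap. Of nuclei of 500 to under 1000 UMIs, 43.0% were immune-like and 40.5% unnamed, and at 5000 and over 34.0% and 0%. Thinned to 500 UMIs, the share of all nuclei with an immediate early UMI was 32.6% (27.5 to 38.1) in the shallowest step and 29.3% (24.2 to 34.8) in the deepest, so by shares of nuclei the depths did not separate, where without thinning the shares were 38.6% and 92.3%.

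The UMIs of both groups were few per nucleus. Sparse counts can leave nuclei without one, and their part in the shares that follow was not tested. At day 1, 27.5% of nuclei had an immediate early UMI and 18.1% a heat shock UMI, and the 241 nuclei with the most held 52.2% and 62.9% of those UMIs. After MTI, 67.9% and 48.2% of nuclei had one, and the 113 nuclei with the most held 45.0% and 50.5%. The fullest MTI nuclei for immediate early genes were skeletal lineage-like and deep. One of them had 33 immediate early UMIs among 12023, with 9 of Ier3 and 7 of Egr1, and another had 29 among 10376, with 8 of Egr3. The fullest nucleus for heat shock genes was the immune-like one with 19 UMIs of Hspa1a. It raised the heat shock genes of its cluster from 692 to 1071 CPM.

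Set side by side, the libraries gave like orders for some members. Egr1 was the only member whose ratio lay on opposite sides of 1 in the libraries with both intervals leaving out 1. The ratio of myogenic-like to immune-like nuclei for summed immediate early genes was 0.696 at day 1 and 0.390 (0.347 to 0.437) after MTI. Fos had a ratio of 0.333 (0.142 to 0.869) at day 1 and 0.056 (0.025 to 0.108) after MTI, and Klf2 had 0.310 (0.137 to 0.764) and 0.139 (0.027 to 0.435), both lower in myogenic-like nuclei in each library. Bag3 had 2.28 (0.740 to 11.4) and 2.20 (1.55 to 3.14), where the day 1 interval holds 1. Hspa5 had ratios of myogenic-like to skeletal lineage-like nuclei of 0.463 (0.258 to 0.900) and 0.383 (0.261 to 0.552). Egr1 went the other way between the libraries, from 0.471 (0.257 to 0.920) at day 1 to 2.37 (1.40 to 4.04) after MTI. At day 1, 6 of the 14 Egr1 UMIs of immune-like nuclei lay in 1 nucleus, and 20 of the 52 of myogenic-like nuclei in another. Of the 35 Egr1 UMIs of myogenic-like nuclei after MTI, 20 lay in 6 myogenic progenitor-like nuclei. Muscle fibre-like nuclei had 20.1 CPM (11.3 to 33.2), which overlaps the 16.5 CPM of immune-like nuclei, and no day 1 cluster was named progenitor-like. Those differences between the libraries were not tested.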

How the data were processed

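Single-nucleus RNA-seq libraries were made with the 10x Genomics 3′ kit from pooled tissue, 1 library per condition. The deposited files hold whole-number UMI counts per gene and barcode that the authors made with Cell Ranger 7.0.1 (file headers) on mm10 (submitters' processing notes), counting intronic and exonic reads. The labels name a human reference, but 32235 of the 32285 gene identifiers (99.8451%) were found in a mouse annotation. Strand and the splitting of reads between near-identical copies are not given in the sources used here.

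The members and all lists were chosen with earlier results of these data known. Barcodes with 200 to 5000 genes, under 0.5% mitochondrial and 2.5% ribosomal RNA (day 1) or under 5% and 2% (MTI) were kept, after the study's limits. They were clustered with Seurat 5.3.0 in R 4.3.3 (2000 variable genes, 20 or 30 components, resolution 1.7 or 1.0), with the members and wider lists left out. Myogenic nuclei, which the study removed, were kept. A cluster was named where at least 3 markers of a class were 1.5-fold higher, or, failing that, as myogenic-like where its share of muscle markers was above that over every barcode of the library, with limits set after seeing the clusters. No annotation of nuclei was used, so populations are rebuilt and may differ from the study's. Scrublet in scanpy 1.11.5 marked 3 of 5523 day 1 and 0 of 1398 MTI barcodes (0.0543% and 0%) and so did not work as a doublet caller, and doublets were left in.

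UMIs were summed per population and divided by its total (numpy 2.4.6, scipy 1.17.1). Levels have exact Poisson, ratios exact conditional binomial and shares Clopper-Pearson intervals. A count of 0 was given the limit of 3 UMIs. There was no test across samples. A ratio of 1.5-fold or more was called over all genes with at least 5 UMIs expected on each side. Members with 50 or more UMIs were described singly, and of each wider list the genes with the 2 highest and 2 lowest ratios past 1.5-fold were named, except 1 gene that is not reported here. Shares of nuclei were compared after thinning to 200 (day 1) or 500 UMIs (MTI). The calculation was tested on simulated counts. Promoter sequences came from RefSeq, and motifs were searched in them on both strands.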

Additional observations from a re-analysis of the deposited data

Results flagged for a closer look

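Egr1 lay on opposite sides of 1 in the libraries: its level in myogenic-like over immune-like nuclei was 0.471 (0.257 to 0.920, on 52 and 14 UMIs) at day 1 and 2.37 (1.40 to 4.04, on 35 and 28 UMIs) after MTI. The difference was not tested, and the day, the injury and the library cannot be told apart. Of the 72 day 1 UMIs of Egr1, 20 lay in 1 myogenic-like nucleus and 6 in another. In immune-like nuclei, 6 of the 14 UMIs lay in 1 nucleus. The day 1 ratio without these nuclei was not computed. Of the 35 UMIs in myogenic-like nuclei after MTI, 20 lay in 6 myogenic progenitor-like nuclei, a population not named at day 1, and muscle fibre-like nuclei had 20.1 CPM (11.3 to 33.2) against 16.5 CPM in immune-like nuclei.

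Barcodes with 200 to 5000 genes that the mitochondrial and ribosomal limits removed held both gene groups at higher levels than the nuclei kept. In the 3118 barcodes removed at day 1, immediate early genes had 963 CPM (911 to 1017), 1.32 times the nuclei kept, and heat shock genes had 574 CPM (534 to 616), 1.31 times. In the 271 barcodes removed from the MTI library, immediate early genes had 900.4 CPM (840 to 964), 1.18 times, and heat shock genes had 514 CPM (469 to 563), 1.73 times. The mitochondrial share was 0.932% over all day 1 barcodes of this range and 0.198% in the nuclei kept, and 3.11% and 0.702% in the MTI library. Its part in the levels was not tested.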

How the results depend on the processing

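Over 86 alternative values of the 8 summed ratios, 63 moved by less than their counting interval, 23 moved by more and 80 lay on the same side of 1 as the value in the report. With the mitochondrial limit at 5% (day 1) or 0.5% (MTI), the day 1 ratios of nuclei to free RNA were 0.765 (immediate early) and 1.12 (heat shock), and the MTI ratios of shallow to deep nuclei were 1.73 and 1.48. With at least 500 genes per nucleus the day 1 ratios were 0.435 and 0.724, the heat shock depth ratio was 2.65, and no value could be had for day 1 myogenic-like over immune-like nuclei. With no mitochondrial or ribosomal limit the values were 0.775 and 1.13 for nuclei over free RNA, 0.558 for immediate early genes in myogenic-like over immune-like nuclei and 1.72 for the heat shock depth ratio. As means over nuclei, the immediate early ratio was 0.727 for nuclei over free RNA and 2.15 for immune-like over skeletal lineage-like nuclei. The heat shock ratio to free RNA was 1.12 without Hspa5 and 1.08 with free RNA taken from barcodes under 100 genes, so it did not keep to one side of 1. With the listed genes kept in the clustering, the day 1 myogenic-like over immune-like ratio was 0.893 for immediate early genes. With nuclei assigned by their own marker score, the immediate early ratio of immune-like to skeletal lineage-like nuclei was 1.48. Within immune-like nuclei the depth ratios were 1.72 and 3.12. The second, for heat shock genes, rests on 77 UMIs in shallow nuclei, 25 of them in 1 nucleus. Alternatives chosen after seeing the data gave 0.953 for the day 1 myogenic-like immediate early ratio at 300 to under 500 UMIs, where the step below it had 1003 CPM in myogenic-like and 1649 CPM in immune-like nuclei, 1.69 for the heat shock depth ratio without 1 nucleus, and for immune-like over skeletal lineage-like nuclei 1.27 without the Arg1-led cluster and 1.48 (1.477) at 2000 UMIs or more. The cause of these moves was not tested. The heat shock ratios of myogenic-like to immune-like (12 alternatives) and of immune-like to skeletal lineage-like nuclei (13 alternatives) moved by less than their intervals. The first lay below 1 with no mitochondrial or ribosomal limit (0.832, 0.687 to 1.01), and its interval lay above 1 with the cluster resolution doubled (1.01 to 1.67). The interval of the second, which leaves out 1 in the report, held 1 at the 0.5% mitochondrial limit (0.719 to 1.02), at doubled resolution (0.829 to 1.12) and by own marker score (0.747 to 1.05), and its mean over nuclei was 0.998. No paired analysis was possible because each condition has 1 library. Low depth limits the day 1 values most, where 19 genes had under 50 UMIs.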
